A study of Mus musculus with 10 samples.

Results

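The 10 genes described here, Mpo, Elane, Prtn3, Ctsg, Ms4a3, Lyz2, Cebpe, Fcgr3, Plac8 and Cd63, encode proteins of neutrophil granules or mark early myeloid progenitors. They were taken by symbol from a count table of 24544 mouse genes, in which all 10 were listed. The study sorted hematopoietic stem cells from Hoxb5-mCherry mice aged 2 to 3 months, in which the red fluorescent protein mCherry reports Hoxb5, and divided them by surface neogenin-1 (NEO1), the receptor encoded by Neo1. Cells of both groups lacked lineage markers, carried cKIT, SCA1 and CD150, were negative for CD48, FLK2 and CD34, and were positive for the Hoxb5 reporter; the antibodies of the lineage panel are not given in the sources used here. There were 5 libraries of NEO1+ cells and 5 of NEO1- cells, each made by Smart-seq2, a full-length cDNA method primed on poly(A) tails, from 250 to 500 cells of 2 pooled mice. The labels do not say whether same-numbered libraries share mice or whether the libraries of a group came from separate mice, so p-values here measure the spread between these libraries, which may be technical.

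Primary (azurophil) granules are the first granules that a developing neutrophil builds, and their contents, myeloperoxidase and a family of serine proteases, are transcribed in granulocyte-monocyte progenitors and promyelocytes and then switched off. Secondary and tertiary granules, which carry lactoferrin and related proteins, are filled later, under the transcription factor C/EBP epsilon. Stem cells at the top of this pathway are known to hold little granule mRNA, although low levels of myeloid transcripts before commitment have long been described as lineage priming.

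Library totals ran from 21.2 to 38.9 M counts, 11477 to 13808 genes had at least 1 count, and the ribosomal RNA precursor Rn45s took 27.9% to 42.4% of a library. Values below are counts per M counts of the library (CPM) over library sizes scaled by TMM, and a count of 0 allows up to 3 counts, which is 0.0699 to 0.144 CPM depending on the library. PCR copies were not marked by molecular identifiers, so these limits cover counting error only. The summed CPM of 14 stem cell genes was 3260 to 3629 in NEO1+ and 3121 to 3662 in NEO1- libraries. Neo1 ran from 48.6 to 64.8 CPM over 4 NEO1+ libraries and from 4.56 to 18.9 CPM over the NEO1- libraries, while the library labelled NEO1+ 4 had 12.5 CPM, inside the NEO1- range.

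Across the libraries the granule and progenitor genes fell into a variable and a steady set. Mpo, Elane, Ctsg and Ms4a3 ran from no count in some libraries to maxima of 58.6 (Ms4a3) to 1589.9 CPM (Mpo), and Cebpe, Fcgr3 and Plac8 followed much the same libraries at lower levels. Prtn3, Lyz2 and Cd63 were present in every library at over 100 CPM. None of the 9 genes that could be tested differed between NEO1+ and NEO1- cells after adjustment over all genes.

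Mpo encodes myeloperoxidase, the heme enzyme that makes hypochlorous acid in the neutrophil phagosome. NEO1+ libraries 1 to 5 had 238, 3.15, 724, 263 and 9.03 CPM of it, and the NEO1- ones, in the same order, 0, 0, 1589.9, 552 and 0.331 CPM. The raw counts behind these values were 4949, 123, 31080, 8642 and 311 in NEO1+ and 0, 0, 46941, 18145 and 10 in NEO1-. Both groups therefore contained libraries rich in Mpo and libraries with almost none, and the highest and the lowest values were both in NEO1-. NEO1- library 3 was at least 11318-fold higher than NEO1- library 2 and at least 16648-fold higher than NEO1- library 1, taking 3 counts in each of those libraries as the limit. On the log2 scale the sorted Mpo values had a gap of 4.71 between 3.18 and 7.89, with 5 libraries above it and 5 below. In pooled cells, fewer expressing cells and less RNA per cell cannot be told apart.

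**Figure D1:**
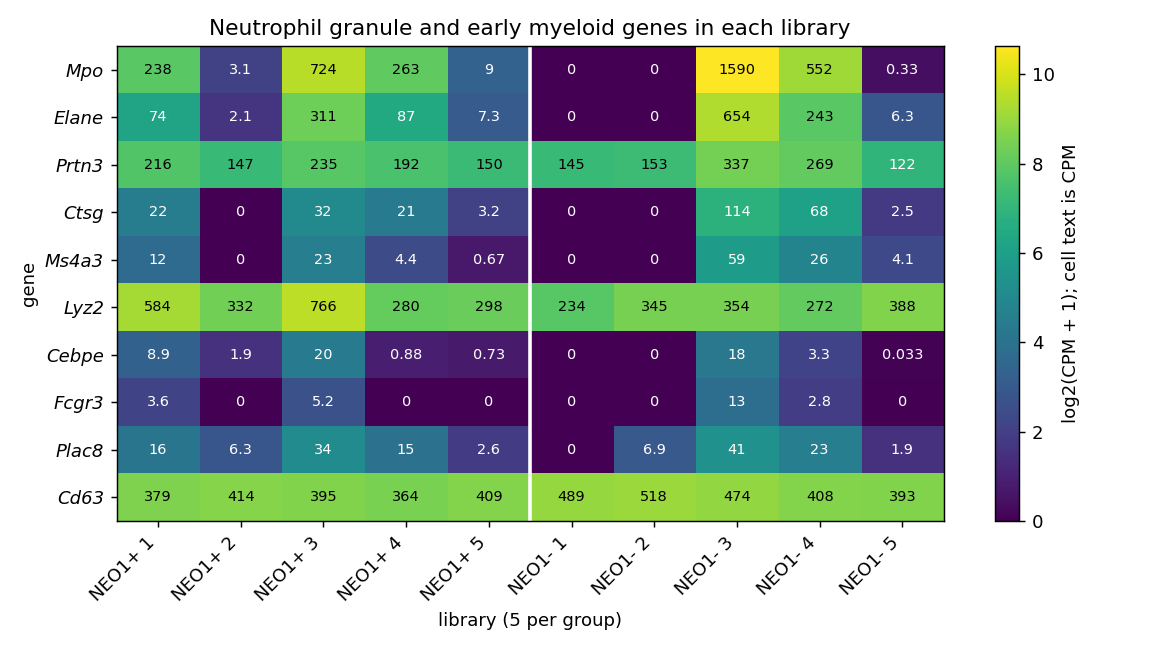
Each row is a gene and each column a library, NEO1+ left of the white line and NEO1- right of it. Colour gives log2(CPM + 1) and the text in each cell gives CPM. Mpo, Elane, Ctsg and Ms4a3 are bright in libraries 1, 3 and 4 of NEO1+ and 3 and 4 of NEO1-, whereas Lyz2, Prtn3 and Cd63 are bright in every column.

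Elane encodes neutrophil elastase, a serine protease of the primary granule. Its levels were 73.6, 2.07, 311, 86.7 and 7.26 CPM in NEO1+ libraries 1 to 5 and 0, 0, 654, 243 and 6.28 CPM in NEO1- libraries 1 to 5. NEO1- library 3 was again the highest, followed by NEO1+ library 3 and NEO1- library 4, and the groups overlapped. Ctsg, which encodes cathepsin G, another serine protease of the same granule, gave 21.8, 0, 32.2, 20.7 and 3.19 CPM for NEO1+ and 0, 0, 114, 67.7 and 2.48 CPM for NEO1-. Ms4a3 encodes a membrane protein with a cell cycle function, used as a marker of granulocyte-monocyte progenitors. Its NEO1+ values were 12.1, 0, 22.7, 4.44 and 0.668 CPM, and its NEO1- values 0, 0, 58.6, 26.4 and 4.13 CPM. Ctsg and Ms4a3 had no count in the same 3 libraries, NEO1+ library 2 and NEO1- libraries 1 and 2.

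Prtn3 encodes proteinase 3, the close relative of elastase whose gene lies directly upstream of Elane. Unlike Elane it was never near 0, with 216, 147, 235, 192 and 150.5 CPM in NEO1+ libraries 1 to 5 and 145, 153, 337, 269 and 122 CPM in NEO1-. Its highest library was 2.77 times its lowest. The 5 libraries with the most Prtn3 were nevertheless the 5 with the most Mpo, Elane, Ctsg and Ms4a3, so it had the same high libraries on top of a level present in all 10. In the GENCODE M21 annotation of GRCm38 (mm10), Prtn3 occupies chr10:79874476-79883174 and Elane chr10:79886247-79888215, both on the plus strand, and RefSeq places 3137 bases between the end of Prtn3 and the start of Elane. Mpo lies on another chromosome, at chr11:87793581-87804413 on the plus strand.

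The RefSeq promoter windows of these 3 genes are shown because Mpo and Elane fell to 0 in some libraries while Prtn3, lower in the same libraries, kept at least 122 CPM. All 3 also hold the letters GAGGAAGT, a core recognised by the myeloid transcription factor PU.1. The 250 bases upstream of each start site were searched on both strands, and 9 of the 10 genes had an entry. Fcgr3 and Plac8 had more than 1 start site, and a match at either counted for the gene. The shares of genes and of windows given below are thus unlike units. GAGGAAGT was found in 3 of these 9 genes, against 2.44% of 32851 promoter windows of that length. The first match began 224 bases upstream of the RefSeq start in Mpo, 85 in Elane and 95 in Prtn3. In the stretches below, given 5′ to 3′ on the plus strand of GRCm38, the capitals mark these letters.
Mpo, chr11:87793534-87793580: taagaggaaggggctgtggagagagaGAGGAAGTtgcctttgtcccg
Elane, chr10:79886127-79886246: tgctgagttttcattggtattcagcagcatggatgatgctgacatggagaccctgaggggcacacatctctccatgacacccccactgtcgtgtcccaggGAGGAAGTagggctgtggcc
Prtn3, chr10:79879494-79879613: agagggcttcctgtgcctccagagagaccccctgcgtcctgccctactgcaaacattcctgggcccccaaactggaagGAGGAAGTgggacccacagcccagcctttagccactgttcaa
The Mpo and Elane stretches end at the base before the GENCODE start of the gene, and the Prtn3 stretch lies upstream of the RefSeq start but within the longer GENCODE gene, outside its exons. The letters were thus present upstream of the steady Prtn3 and the variable Mpo and Elane. They were not found for the variable Ctsg, Ms4a3, Fcgr3 and Plac8 or the steady Lyz2 and Cd63. CAACNG, letters bound by MYB, were found in 5 of the 9 genes, Elane, Prtn3, Ctsg, Lyz2 and Plac8, against 29.3% of windows. TTGCNNAA, a C/EBP half-site pair, was found in 2 of 9, Fcgr3 and Plac8, against 9.56% of windows. No motif contains the letters of another, all 3 were chosen after the sequences had been read, and a match is a description of the letters only.

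Cebpe, the gene of C/EBP epsilon, had 8.88, 1.87, 20.5, 0.882 and 0.726 CPM over NEO1+ libraries 1 to 5 and 0, 0, 18.2, 3.34 and 0.0331 CPM over the NEO1- ones, the last being 1 count. It was highest in library 3 of each group, and unlike Mpo it had its maximum in the NEO1+ member of that pair. Fcgr3 encodes a low-affinity receptor for IgG found on myeloid cells, and its reads may be shared with its relatives Fcgr2b and Fcgr4. It was counted in only 4 libraries, at 3.55 CPM in NEO1+ 1, 5.20 CPM in NEO1+ 3, 13.3 CPM in NEO1- 3 and 2.80 CPM in NEO1- 4. All of these were among the 5 libraries highest in Mpo. Plac8, a small cysteine-rich protein of myeloid progenitors and other blood cells, had 16.4, 6.29, 33.9, 14.6 and 2.55 CPM over the NEO1+ libraries and 0, 6.93, 40.8, 22.7 and 1.89 CPM over the NEO1- ones. NEO1- library 2, with no Mpo, Elane or Ctsg count, thus had more Plac8 than NEO1+ library 5.

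Lyz2 encodes lysozyme, which cuts bacterial cell walls and is made by neutrophils and macrophages. Its levels were 584, 332, 766, 279.9 and 298 CPM in NEO1+ libraries 1 to 5 and 234, 345, 354, 272 and 388 CPM in NEO1- libraries 1 to 5. The values of NEO1+ libraries 1 and 3 stood above all others, and the other 8 libraries lay between 234 and 388 CPM. Lyz1 is a near-identical copy, so Lyz2 counts are uncertain, although Lyz1 itself averaged 0.396 CPM for NEO1+ and 0.0129 CPM for NEO1-. Cd63 encodes a tetraspanin of lysosome and primary granule membranes that is present in many cell types. It was the steadiest of the 10 genes, at 379, 414, 395, 364 and 409 CPM in NEO1+ and 489, 518, 474, 408 and 393 CPM in NEO1-. Its 3 highest libraries were NEO1- 1, 2 and 3, of which 1 and 2 had no Mpo count and 3 had the most.

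Per kilobase of exon, the mean over the 10 libraries was highest for Lyz2 and Cd63, both at 293 CPM per kb, followed by Prtn3 at 192, Elane at 141 and Mpo at 116. Ctsg followed at 26.2, Ms4a3 at 12.7, Plac8 at 10.4, Cebpe at 4.39 and Fcgr3 at 1.84 CPM per kb. For Mpo, Elane, Ctsg, Ms4a3, Cebpe and Fcgr3 neighbours in this order differed by less than the spread between libraries. The SD of log2 CPM over the 10 libraries was 5.71 for Mpo, and 0 of the 12203 tested genes had a larger one. It was 4.84 for Elane, which 2 genes exceeded, 4.32 for Ctsg, which 5 exceeded, and 3.88 for Ms4a3, which 10 exceeded. For Cebpe it was 3.22 and for Plac8 2.76. The median of all tested genes was 0.58, and Lyz2 at 0.52, Prtn3 at 0.47 and Cd63 at 0.17 lay below it. These are spreads over all libraries and mix both groups.

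The libraries that were high were largely shared. The 5 libraries with the most Mpo, NEO1+ 1, 3 and 4 and NEO1- 3 and 4, were also the 5 highest for Elane, Prtn3, Ctsg, Ms4a3 and Plac8, while Cebpe shared 4 of them, Lyz2 3 and Cd63 1. Libraries numbered 3 and 4 were high in both groups and those numbered 2 and 5 were low in both, whereas number 1 was high in NEO1+ only. For Elane, proportions to Mpo within these 5 libraries lay close together. Per 100 Mpo counts there were 31.0, 43.0 and 33.0 Elane counts in NEO1+ 1, 3 and 4, and 41.1 and 44.1 in NEO1- 3 and 4. Ctsg gave 9.15, 4.44 and 7.89 counts per 100 of Mpo in the same NEO1+ libraries and 7.20 and 12.3 in the NEO1- libraries. Prtn3, which has its own level in every library, gave between 21.2 and 90.9 counts per 100 of Mpo, and Cebpe between 0.336 and 3.74.

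Spearman's rho between genes over the 10 libraries describes this order. Among the 21 pairs of Mpo, Elane, Ctsg, Ms4a3, Cebpe, Fcgr3 and Plac8 it ran from 0.81 to 0.99 with a median of 0.87, and Prtn3 with those genes gave 0.78 to 0.96. Lyz2 with the same genes gave 0.28 to 0.52, and Cd63 gave -0.44 to -0.13. These coefficients carry no p because the libraries separate into a high and a low cluster in Mpo, of 5 libraries each, too few for a value within either. The coefficients also share the libraries' scaling, and tied zeros enter several of them. Among the 3 steady genes the relation could be tested, with p adjusted over all 45 pairs of the 10 genes. Prtn3 and Lyz2 gave a Pearson r of 0.26 (two-sided permutation p = 0.480, adjusted 0.502) and rho of 0.21 (permutation p = 0.561, adjusted 0.601), and r was 0.67 without the 2 libraries farthest from the Prtn3 median. Prtn3 and Cd63 gave r of -0.04 (permutation p = 0.905, adjusted 0.905) and rho of -0.12 (permutation p = 0.760, adjusted 0.760), with r of -0.42 without those 2 libraries. Lyz2 and Cd63 gave r of -0.34 (permutation p = 0.345, adjusted 0.369) and rho of -0.28 (permutation p = 0.426, adjusted 0.486), and r was -0.01 without the 2 libraries farthest from the Lyz2 median. No relation among these 3 genes passed the test.

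**Figure D2:**
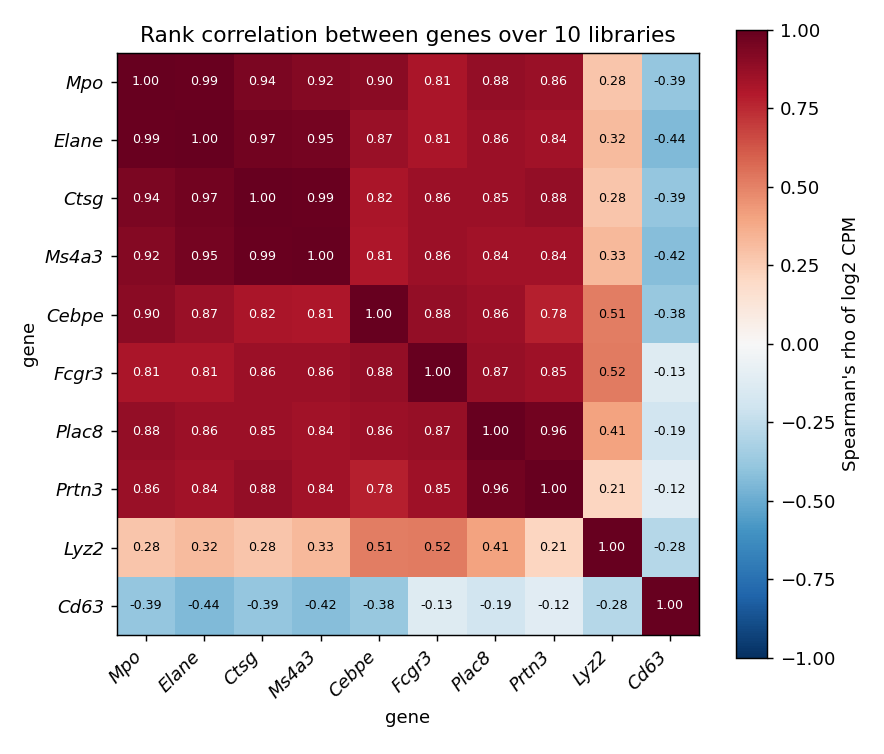
Spearman's rho of log2 CPM between each pair of the 10 genes over 10 libraries, with genes on both axes and rho in colour and in each cell. The block from Mpo to Prtn3 lies between 0.78 and 0.99, and the rows of Lyz2 and Cd63 lie between -0.44 and 0.52.

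NEO1+ and NEO1- cells were then compared for each gene. Of the 12203 genes tested with edgeR's quasi-likelihood test, 0 passed an adjusted p of 0.05 (0.00%), and 0 of the 9 tested genes of the set did. At an unadjusted p under 0.05 the same test held 806 genes (6.60%; 3.49% lower and 3.11% higher in NEO1+) and, of the 9, 1 lower, Cd63, and 0 higher. DESeq2 called 147 genes (1.03%) and 0 of the 10, and with the library number as a block it called 5.08% of genes and 1 of the 10, Cebpe. The values of NEO1+ and NEO1- did not overlap for 303 tested genes (2.48%) and for 0 of the 9. The median log2 fold change of the 9 genes was -0.22, beside 0.01 for all genes tested.

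The 4 most variable genes had lower fitted means in NEO1+ with standard errors larger than the differences. Mpo averaged 247 ± 293 CPM (SD, n = 5) for NEO1+ and 428 ± 692 CPM for NEO1-, giving a log2 fold change of -0.79 ± 2.31 (SE; adjusted p = 0.998. in edgeR) Without NEO1- library 3 the Mpo fold change turned to 0.84. The log2 fold change was -0.91 (SE 2.05) for Elane, -1.25 (SE 1.86) for Ctsg and -1.16 (SE 1.65) for Ms4a3, and without NEO1- library 3 those of Elane and Ms4a3 turned to 0.62 and 0.06 and that of Ctsg was -0.17. Differences of several-fold in either direction could not have been detected for these 4 genes with this spread.

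For Cebpe the log2 fold change was 0.60 (SE 1.69) and turned to -0.48 without NEO1+ library 3. Plac8 had 0.03 (SE 1.11), and it turned to -0.54 without the same library. Fcgr3 averaged 1.75 ± 2.47 CPM (SD, n = 5) for NEO1+ and 3.21 ± 5.75 CPM for NEO1- and did not pass the filter on low counts.

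The steady genes were measured more closely. Prtn3 averaged 188 ± 39.1 CPM (SD, n = 5) for NEO1+ and 205 ± 93.3 CPM for NEO1-, giving a log2 fold change of -0.13 ± 0.26 (SE; adjusted p = 0.998. in edgeR) Lyz2 averaged 452 ± 214 CPM for NEO1+ and 319 ± 63.6 CPM for NEO1-, giving a log2 fold change of 0.50 ± 0.26 (SE; adjusted p = 0.807 in edgeR), and it was 0.23 to 0.63 under the 18 alternative analyses. Cd63 averaged 392 ± 20.6 CPM for NEO1+ and 457 ± 53.6 CPM for NEO1-, a log2 fold change of -0.22 (SE 0.09). Its p was 0.0340 before and 0.705 after adjustment in edgeR, and an exact two-sided permutation test of the log2 CPM values gave 0.0714. The Cd63 values of NEO1- libraries 4 and 5 lay within the NEO1+ range, so the groups overlapped.

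**Figure D3:**
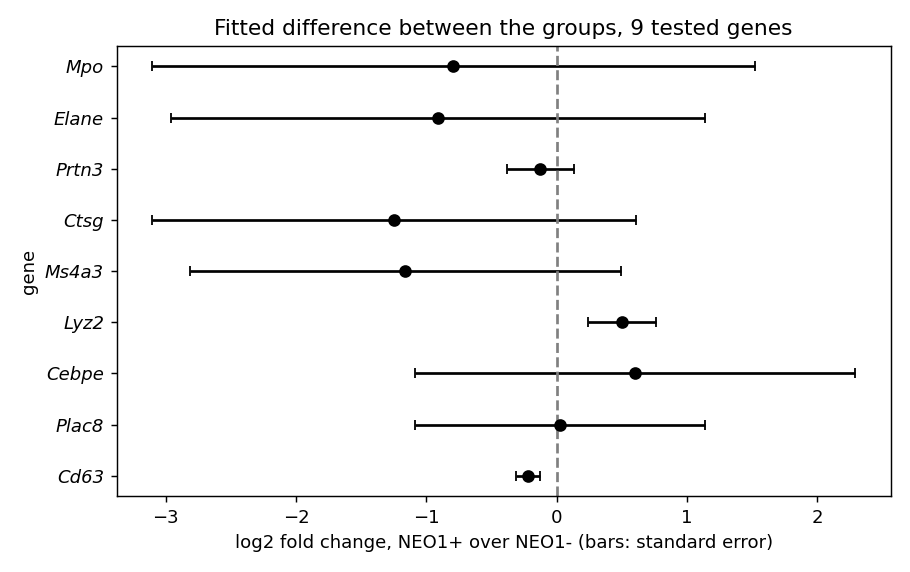
Fitted log2 fold change of NEO1+ over NEO1- for the 9 tested genes, with genes on the vertical axis and bars of 1 standard error. The bars of Mpo, Elane, Ctsg, Ms4a3, Cebpe and Plac8 cross 0 and exceed 1 log2 unit on each side, while those of Prtn3, Lyz2 and Cd63 are at most 0.26 wide on each side.

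Genes of the later granule stages had another distribution over the libraries. Of 15 listed genes of later neutrophil stages, mainly of secondary and tertiary granules, 10 were tested. All 10 had a higher fitted mean in NEO1+, and 0 passed the adjusted test. Cybb, which encodes the NADPH oxidase subunit gp91phox, was named because it was the only one with an unadjusted p under 0.05. It gave a log2 fold change of 5.37 ± 1.67 (SE, adjusted p = 0.508 in edgeR), and DESeq2 called it. Its raw counts were 408, 95, 1596, 56 and 64 in NEO1+ libraries 1 to 5. Those of NEO1- were 0, 0, 0, 40 and 8. Counts of at least 10 thus came from NEO1+ and from NEO1- library 4 only. NEO1+ libraries 1 and 3 were highest, at 19.6 and 37.2 CPM. Because Cybb was picked by its p, that p carries no separate evidence. The median log2 fold change of the 10 genes was 2.57, beside 0.01 for all genes, and it was 1.59 without NEO1+ library 3, with 9 genes higher and 1 lower. In edgeR with the library number as a block 7 were higher and 3 lower, with a median of 0.41, and in limma-voom 9 were higher and 1 lower. Ngp, the neutrophilic granule protein, had 706, 0, 1233, 9.22 and 43.1 CPM over NEO1+ libraries 1 to 5 and 0, 16.8, 4.50, 49.4 and 318 CPM over the NEO1- ones. Ltf, which encodes lactoferrin, gave 263, 0.0512, 489.99, 5.35 and 12.9 CPM for NEO1+ and 0, 1.45, 0, 34.8 and 54.9 CPM for NEO1-. S100a8, a subunit of calprotectin, gave 325, 1.97, 367, 8.97 and 20.4 CPM for NEO1+ and 1.34, 8.71, 5.83, 36.0 and 78.3 CPM for NEO1-. S100a9, the other calprotectin subunit, had 351, 3.53, 609, 10.4 and 39.9 CPM over the NEO1+ libraries and 0, 20.2, 4.20, 36.3 and 99.4 CPM over the NEO1- ones. The libraries that were high in Ngp, Ltf, S100a8 and S100a9 were NEO1+ 1 and 3, followed by NEO1- 5. Cybb was also highest in NEO1+ 1 and 3, but was at 0.265 CPM in NEO1- 5.

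Set beside the summed CPM of Mpo, Elane, Ctsg and Ms4a3, the 15 later genes divided the Mpo-rich libraries. NEO1+ libraries 1 and 3 had 345 and 1091 CPM of the 4 primary-stage genes and 2206 and 3774 CPM of the later genes. NEO1- library 3 had 2417 CPM of the primary-stage genes and 44.6 CPM of the later genes, a ratio of later to primary of 0.0184, against 6.39 and 3.46 in NEO1+ 1 and 3. NEO1+ library 4, with 375 CPM of the primary-stage genes, had a ratio of 0.163, and NEO1- library 4, with 889 CPM, had 0.246. NEO1- library 5 was the reverse case, with 13.2 CPM of the primary-stage genes, 713 CPM of the later genes and a ratio of 53.9. High primary-stage levels thus occurred with high and with low later-stage levels, and NEO1- library 5 had later-stage transcripts with little Mpo.

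**Figure D4:**
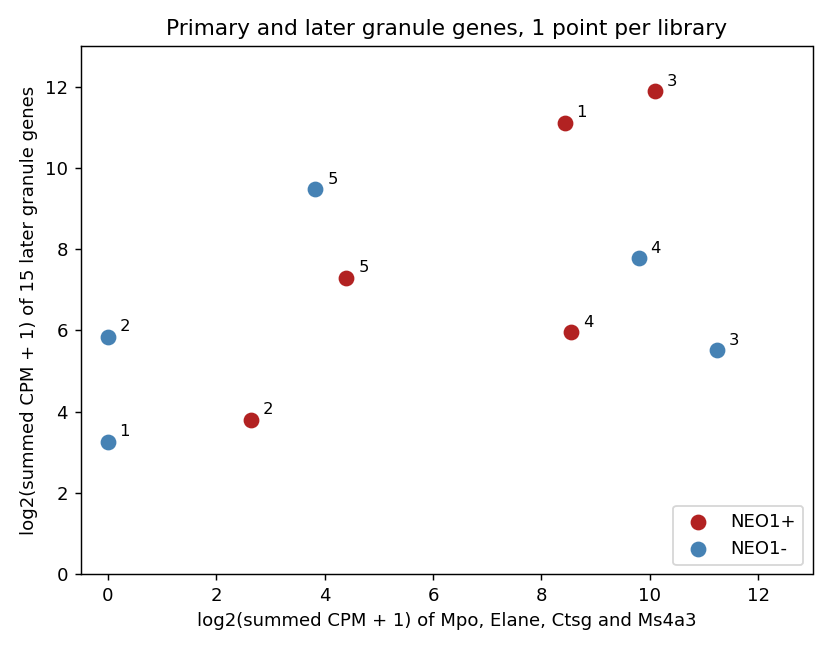
Each point is a library, with log2(summed CPM + 1) of Mpo, Elane, Ctsg and Ms4a3 on the horizontal axis and that of the 15 later genes, mainly of secondary and tertiary granules, on the vertical axis, coloured by group and numbered by replicate. NEO1- 3 is farthest right but low on the vertical axis, NEO1+ 1 and 3 are high on both, and NEO1- 5 is high only on the vertical axis.

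Other genes of the primary granule, its proteases, inhibitors and storage proteins, included steady and variable ones. Of 7 listed, 5 were tested, 3 were higher and 2 lower in NEO1+, and 0 passed the adjusted test, with a median log2 fold change of 0.04. Srgn, the proteoglycan serglycin that packs granule proteases, averaged 415 ± 30.8 CPM (SD, n = 5) for NEO1+ and 467 ± 33.0 CPM for NEO1-. Ctsc, which encodes the protease that activates elastase, cathepsin G and proteinase 3, averaged 177 ± 41.1 CPM for NEO1+ and 116 ± 12.7 CPM for NEO1-. Its log2 fold change was 0.61 (SE 0.17, edgeR adjusted p = 0.390), the only one of the 5 with an unadjusted p under 0.05. Serpinb1a, an inhibitor of these proteases, averaged 39.8 CPM for NEO1+ and 35.1 CPM for NEO1-, with single libraries from 6.21 to 84.1 CPM. Prss57, a further serine protease of neutrophil granules, had 0, 1.64, 7.99, 7.64 and 2.90 CPM over NEO1+ libraries 1 to 5 and 0, 0, 10.6, 8.997 and 0 CPM over the NEO1- ones. Libraries 3 and 4 of each group were its highest, and NEO1+ library 1 had 238 CPM of Mpo but no Prss57 count.

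Transcription factors of the myeloid lineage were present in both groups. Of 9 tested, 5 were higher and 4 lower in NEO1+, 0 passed the adjusted test, and the median log2 fold change was 0.06. Myb averaged 249 ± 31.1 CPM for NEO1+ and 263 ± 64.0 CPM for NEO1- (SD, n = 5), and Cebpb 191 ± 36.6 and 184 ± 55.6 CPM. Spi1, the gene of PU.1, averaged 86.5 ± 22.8 CPM for NEO1+ and 92.2 ± 12.9 CPM for NEO1-, a log2 fold change of -0.09 (SE 0.19). Klf4, a factor that favours monocytes, was the only one with an unadjusted p under 0.05, at a log2 fold change of -1.01 ± 0.43 (SE; adjusted p = 0.705. in edgeR) Of 11 receptors and adaptors of myeloid cells 8 were tested, 6 were higher and 2 lower in NEO1+, and 0 passed. Csf3r, the receptor for granulocyte colony-stimulating factor, averaged 47.9 ± 16.4 CPM for NEO1+ and 45.5 ± 6.98 CPM for NEO1-.

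Markers of other cell types were summed in the same way. Of 12 monocyte and dendritic cell genes 5 were tested, with 1 higher and 4 lower in NEO1+. The summed CPM of the 12 was 139 to 236 in NEO1+ and 149 to 263 in NEO1-. Cd74, with a mean of 131 CPM over all libraries, was the largest part of this sum. In NEO1+ 3 all 12 genes had at least 10 counts, and in the other libraries 4 to 7 of them did. Ly86, Ccr2 and Cx3cr1 were counted in NEO1+ 3 only. Of 8 B-cell genes, Pax5, Igll1 and Dntt were among those with no count in any library, and the sum was 34.1 to 51.7 CPM over the NEO1+ and 26.1 to 60.9 CPM over the NEO1- libraries. Of 8 T- and NK-cell genes, Cd3e and Gzma had no count, and the sum was 27.9 to 47.5 CPM over the NEO1+ and 10.1 to 53.1 CPM over the NEO1- libraries. Of 9 stromal and endothelial genes, Lepr, Cdh5 and Bglap had no count, with sums of 17.9 to 57.8 CPM over the NEO1+ and 0 to 37.6 CPM over the NEO1- libraries. The 9 megakaryocyte genes summed to 915 to 1110.3 CPM over the NEO1+ and 858 to 1127 CPM over the NEO1- libraries. The 3 genes of the negative gate, none of which passed, summed to 52.8 to 116 CPM over the NEO1+ and 73.2 to 118 CPM over the NEO1- libraries. Cd34 made up most of this sum, with a mean of 81.3 CPM over all libraries. Cd48 was counted in 5 libraries only. It had 0.912 and 8.69 CPM in NEO1+ 1 and 3, and 8.20, 4.13 and 3.64 CPM in NEO1- 3, 4 and 5. Flt3 was highest in NEO1- 4 and 5, at 24.0 and 30.0 CPM, and was at 0.474 CPM in NEO1- 3. All 12 proliferation genes had higher fitted means in NEO1+, 7 of them with an unadjusted p under 0.05 and 0 after adjustment, with sums of 314 to 546 CPM over the NEO1+ and 74.3 to 228 CPM over the NEO1- libraries. The part of these lists in the values of the granule genes was not tested.

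The tested genes whose pattern over the 10 libraries was most like that of Mpo, by Pearson's r of log2 CPM as a description, were led by Elane at 0.96, above all 12194 genes outside the set. Of those 12194 genes, 6 had a higher r than Cebpe, 9 than Ctsg, 44 than Prtn3 and 44 than Ms4a3. For Plac8 this number was 118, for Lyz2 2703 and for Cd63 11238. The 10 nearest genes outside the set were Trem3, Svep1, Pip4k2c, Nudt11, Rhd, Atp8b4, Eif2b1, Clec5a, Fam78b and Nap1l1, with r of 0.91 to 0.94. Trem3, an activating receptor of myeloid cells, had 7.83, 0, 10.8, 3.71 and 0.552 CPM over NEO1+ libraries 1 to 5 and 0, 0, 4.23, 3.98 and 0 CPM over the NEO1- ones. Clec5a, a lectin receptor of myeloid cells, reached 12.4 CPM in NEO1- library 3 and 9.72 CPM in NEO1+ library 3, and was at most 2.25 CPM in the other 8. Both were picked as myeloid receptors, and the cell types of the remaining genes were not assessed. Rhd reached 42.3 CPM in NEO1+ library 3 and was at most 7.01 CPM elsewhere. Svep1 was highest in NEO1+ library 1, at 7.16 CPM. Pip4k2c, Eif2b1 and Nap1l1 ranked with Mpo but varied far less, Nap1l1 running from 104 to 155 CPM.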

How the data were processed

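RNA of 10 libraries, 5 of NEO1+ and 5 of NEO1- cells, was amplified with 18 PCR cycles and 40 ng of cDNA entered the Nextera reaction, per the labels' protocols. The authors deposited raw counts per gene symbol, used for every main result, and log2 values, used for 1 alternative of the correlations; each deposited log2 value equalled log2 of the count over 1 constant per library plus 1 (largest residual 5.15e-14). STAR 2.4, bcl2fastq 2.18, DESeq2 1.22.2 and mm10 are named per the submitters' processing notes; counting tool, annotation and strand use are not given in the sources used here, so reads of overlapping or antisense genes cannot be told apart. Genes were filtered (filterByExpr, minimum count 10), scaled by TMM and tested with edgeR 4.0.16 in R 4.3.3 (robust quasi-likelihood), with Benjamini-Hochberg adjustment over 12203 genes and a threshold of 0.05. Standard errors were obtained as the absolute log2 fold change divided by the root of the F statistic. Log2 CPM used a prior count of 2, and permutation tests of correlations used 100000 resamples. The fits were tested on simulated data. Alternatives were DESeq2 1.42.0, limma 3.58.1 (voom), a replicate block, other size factors, no filter, removal of Rn45s and leaving out each library. All members are named; of other lists, up to 4 genes of highest mean CPM were named, plus the 10 genes most correlated with Mpo. Genes that a count of 5 or fewer singles out were named after their values were seen. The members and lists were chosen with earlier results of these data known. Promoter sequences are from RefSeq (GRCm38.p6), and gene positions and exon lengths from GENCODE M21 (GRCm38).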

Additional observations from a re-analysis of the deposited data

Results flagged for a closer look

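Among 54 groups of 5 library values examined for a single distant library, 2 passed Dixon's 95% critical value of 0.71; chance alone passes it in about 5% of groups. The first was the summed level of 9 eosinophil, basophil and mast cell genes in NEO1+ libraries, where library 3 reached 8.95 on the log2(CPM + 1) scale and the other 4 lay between 0 and 2.03. In that library Prg2, which encodes the major basic protein of eosinophil granules, was at 366 CPM, and Epx, eosinophil peroxidase, was at 89.9 CPM and at 0 in the other 9 libraries. Prss34, Gzmb, Ms4a2 and Fcer1a had no count in any library, and NEO1+ library 3 was also the NEO1+ library with the most Mpo and Ngp. The second was the summed level of 8 B-cell genes in NEO1+ library 2, at 5.72 on the same scale against 5.14 to 5.28 in the other 4.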

How the results depend on the processing

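The count of genes past the adjusted threshold, 0 in edgeR, was 147 in DESeq2, 704 in DESeq2 with a replicate block, 2 without the filter on low counts, 2 in limma-voom and 0 to 1 when 1 library was left out (1 without NEO1- library 1). The members called stayed at 0 except for 1, Cebpe, in DESeq2 with the block (log2 fold change 3.86, DESeq2 adjusted p = 0.0368, range over its alternatives 0.0368 to 0.9999), where 5.08% of 13859 genes were called; edgeR with the block called 0. Deviations of same-numbered libraries from their group means had correlations of 0.00 to 0.04 over genes. These were not compared with differently numbered libraries, so they cannot decide whether the numbers are pairs. The labels do not pair the libraries, so the number entered as a block in alternatives only. Of 162 single-gene alternatives, 140 kept direction and side of the threshold. The sign turned with the block in edgeR for Mpo (2.44), Elane (0.82) and Ctsg (0.021), with the block in DESeq2 for Mpo (4.59), Elane (1.59) and Ctsg (0.033), and in limma-voom for Mpo (4.28), Elane (2.86), Ctsg (0.81) and Ms4a3 (0.10). It turned without NEO1- library 3 for Mpo (0.84), Elane (0.62), Prtn3 (0.13) and Ms4a3 (0.058), and without NEO1+ library 3 for Cebpe (-0.48) and Plac8 (-0.54). Leaving out 1 library gave ranges of -1.74 to 0.84 for Mpo, -2.09 to 0.62 for Elane, -1.69 to -0.17 for Ctsg, -2.06 to 0.058 for Ms4a3, -0.48 to 2.95 for Cebpe and -0.54 to 0.90 for Plac8. Plac8 also turned without NEO1+ library 1 (-0.01) and NEO1- libraries 1 (-0.29), 2 (-0.15) and 5 (-0.26). Without library 3 of both groups, chosen after seeing the data, 0 members were called and Prtn3 turned to 0.035. The cause of these changes was not tested. The median r over the 45 pairs was 0.74, 0.69 to 0.77 with 1 library left out, 0.74 from the deposited log2 values and 0.84 as Spearman's rho. The median of the later granule genes was 0.41 with the block in edgeR. For Fcgr3 and Cebpe, a count of 0 allows up to 3 counts, or 0.0699 to 0.144 CPM depending on the library depth.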

Other observations

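Erythroid genes, which belong to no comparison above, were present in every library. Of 14 listed, 10 were tested, all 10 had a higher fitted mean in NEO1+ and 0 passed the adjusted edgeR test, with a median log2 fold change of 0.80 beside 0.01 for all genes; Hba-a2, Hbb-bs and Hbb-bt were listed at 0 throughout. Alas2, the heme synthesis enzyme of red cell precursors, was the only one with an unadjusted p under 0.05, at a fold change of 2.98 ± 1.37 (SE) on the log2 scale (edgeR adjusted p = 0.747). Klf1 was chosen after its values were seen. Klf1, the erythroid transcription factor, was at 27.8, 0, 29.9, 4.29 and 11.9 CPM in NEO1+ libraries 1 to 5 and at 0.255, 0.0468, 25.5, 13.3 and 0.397 CPM in NEO1- libraries 1 to 5. Car1, carbonic anhydrase 1, was at 118, 3.33, 199, 4.26 and 14.1 CPM in NEO1+ and at 8.18, 5.15, 154, 22.6 and 6.71 CPM in NEO1-. Library 3 of both groups and NEO1+ library 1 were high in both genes, as they were in Mpo. Other listed genes had another order. Car2, the listed gene of highest mean CPM, ran only from 1370 to 1762 CPM over the libraries. Alas2 was highest in NEO1+ library 1, at 133 CPM, against 43.3 CPM in NEO1+ library 3 and 13.4 CPM in NEO1- library 3.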
